A study of Mus musculus with 2 samples.

Results

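Kinesins are motors of the microtubule tracks, and centromere proteins (CENPs) attach chromosomes to those tracks when a cell divides. Their genes were examined in brain cells of adult wild-type C57BL/6J mice, on control diet or while microglia were growing back after depletion. All gene symbols that begin with Kif and a digit or with Cenp and a letter were taken, which gave 58 of the 27998 genes counted, 39 Kif and 19 Cenp. The membership follows names and used no measured value. The members and the lists of roles used below were, however, chosen with earlier results of these data known. Kif1bp (a kinesin binding protein) and Kif16bos (an antisense RNA beside Kif16b) are members by name only. The family also holds Cenpe, which is itself a kinesin, while the kinesins named Kifc and the centromere proteins filed under older symbols fall outside the rule and were followed as separate lists.

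RNA was measured by 10x Genomics droplet single-cell sequencing in CD11b+/CD45+ cells sorted from papain-dissociated brain, dead cells excluded. The CD group is 1 library from 4 pooled mice that ate control diet for 19 days. The Repop D5 group is 1 library from 6 pooled mice fed PLX5622, which blocks the Csf1r receptor and thereby depletes microglia, over 14 days, followed by 5 days of control diet. With 1 library per group nothing can be said about the spread between mice, so no test was made and every interval below covers counting error only. The group and the library cannot be told apart.

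The CD library held 609 cells with 6055886 UMIs (unique molecules) in all, and the Repop D5 library held 553 retained cells with 11037921 UMIs, 32 barcodes having been left out for few genes or a high mitochondrial share. The median cell had 5982 UMIs in CD and 16226 in Repop D5, and the 2 libraries shared 1 barcode. All 13 microglia markers were found in both libraries, with a sum of 47200 CPM (UMIs per 1000000) in CD against 21840 CPM in Repop D5. The sort also held other myeloid cells: a border macrophage-like cluster (108 CD cells, 0 Repop D5 cells), a monocyte-like cluster (29 and 44) and a neutrophil-like cluster (42 and 7). The border macrophage-like cells were deep, with a median of 17119 UMIs. These 3 named clusters therefore hold a larger part of the CD UMIs than of the CD cells. Levels below are summed over all cells of a library unless stated. The remaining 430 CD cells and 502 Repop D5 cells carried microglia markers but fell into different clusters in the 2 libraries. Clusters 0, 1 and 8 were CD and clusters 2, 3, 5, 7, 10 and 11 were Repop D5, with at most 3 cells of the other library in any of them. Microglia markers alone did not set these cells apart from the named clusters. Their sum was 50832 to 55636 CPM in the 3 CD clusters and 20183 to 25750 CPM in those of Repop D5. It was 44488 CPM in the border macrophage-like, 31343 CPM in the neutrophil-like and 17835 CPM in the monocyte-like cluster. What part carried-over RNA has in these sums was not tested. Cenpf, Cenpe and Kif22 are among the genes that lead cluster 3.

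Kinesins are motors that use ATP to walk along microtubules or to take them apart. One set builds and steers the mitotic spindle and the midzone through which a dividing cell is cut, and another set carries vesicles, mitochondria and other cargo through cells at all times. The centromere is marked by nucleosomes that hold the histone H3 variant CENP-A. On these sits the inner kinetochore, a standing network of CENP proteins, and on that the outer kinetochore forms in mitosis and grips the microtubules. In adult brain microglia divide rarely, and after depletion the surviving cells divide quickly to refill the tissue.

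Many genes of mitosis are switched by DREAM and B-Myb complexes through a short element called CHR, often with CCAAT boxes bound by NF-Y, whereas genes of DNA replication are often under E2F sites. The promoters of 8 members are printed here because the division kinesins and the transport kinesins differed in these letters. RefSeq promoter sequences (GRCm38.p6) were matched for 51 of the 58 members, with 57 promoters among them. Each stretch runs 5′ to 3′ in the direction of the gene, from 140 bases before the listed start to 30 after it. Capitals mark the motifs searched on either strand, namely CHR (TTTGAA or TTTAAA), the NF-Y box CCAAT and the E2F site (TTCCCGC or TTGGCGC).
Cenpa, chr5:30666746-30666915, plus strand: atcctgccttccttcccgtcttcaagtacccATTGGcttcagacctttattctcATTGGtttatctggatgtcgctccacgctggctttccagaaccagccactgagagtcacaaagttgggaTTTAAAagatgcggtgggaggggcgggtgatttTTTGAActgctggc
Cenpf, chr1:189688057-189688226, minus strand: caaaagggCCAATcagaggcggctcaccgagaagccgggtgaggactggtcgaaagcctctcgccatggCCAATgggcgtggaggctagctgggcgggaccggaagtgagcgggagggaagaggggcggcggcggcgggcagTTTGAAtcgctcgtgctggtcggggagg
Cenpe, chr3:135212423-135212592, plus strand: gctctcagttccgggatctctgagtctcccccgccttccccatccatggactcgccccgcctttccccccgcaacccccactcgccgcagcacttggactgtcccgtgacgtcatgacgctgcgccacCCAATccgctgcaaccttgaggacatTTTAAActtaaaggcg
Kif22, chr7:127042391-127042560, minus strand: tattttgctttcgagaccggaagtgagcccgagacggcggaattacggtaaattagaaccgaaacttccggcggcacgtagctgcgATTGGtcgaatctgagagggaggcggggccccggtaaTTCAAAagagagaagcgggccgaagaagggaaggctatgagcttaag
Kif23, chr9:61946770-61946939, minus strand: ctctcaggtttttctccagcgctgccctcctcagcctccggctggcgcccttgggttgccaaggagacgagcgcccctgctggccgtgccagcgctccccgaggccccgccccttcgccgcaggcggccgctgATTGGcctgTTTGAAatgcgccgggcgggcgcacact
Kif11, chr19:37376242-37376411, plus strand: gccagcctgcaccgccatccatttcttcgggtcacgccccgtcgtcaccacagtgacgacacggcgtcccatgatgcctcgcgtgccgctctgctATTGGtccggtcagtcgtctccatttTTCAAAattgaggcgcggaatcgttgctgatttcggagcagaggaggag
Kif1c, chr11:70700408-70700577, plus strand: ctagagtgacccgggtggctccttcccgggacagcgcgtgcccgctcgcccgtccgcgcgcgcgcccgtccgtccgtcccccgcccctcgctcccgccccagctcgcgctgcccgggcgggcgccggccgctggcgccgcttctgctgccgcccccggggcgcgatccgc
Kif3b, chr2:153291276-153291445, plus strand: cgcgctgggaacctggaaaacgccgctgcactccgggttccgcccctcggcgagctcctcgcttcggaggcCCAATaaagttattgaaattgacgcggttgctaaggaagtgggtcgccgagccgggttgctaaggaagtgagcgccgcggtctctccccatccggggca

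Counted over the full window of 300 bases (250 before the start and 50 after), CHR letters stood in the promoters of 9 of 11 matched division kinesins and of 1 of 11 matched transport kinesins. Of all 27025 genes in the table, 30.6% had CHR letters in a promoter. The window of Cenpa held CHR letters beginning at base -17 and at base 17, counted from the start as base 1, and CCAAT letters at -109 and -86. Cenpf had CHR letters at base 3 and at -154, which lies outside the stretch printed, and Kif23 had them at base 3, Kif22 at -17 and -215, Kif11 at -19 and Cenpe at 15. In the transport kinesins Kif1c and Kif3b no CHR letters were found, and Kif3b held 1 CCAAT at -69. A match of letters is a description and does not show that a factor binds there, and no match says only that these letters are not in this window.

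Of the 58 members, 40 had a mean of at least 2 CPM over the 2 libraries. Among these 21 were called higher in Repop D5, 2 were called lower and 17 were neither, where a call needs a ratio of at least 2 in either direction and a 95% interval clear of 1. Over all 10774 genes measured this way 9.66% were called higher and 26.1% lower. The median log2 ratio was 1.07 over the 40 members and -0.41 over all genes. The rule called every measured gene on the division kinesin list and both outer kinetochore genes higher. None of the measured transport kinesins was called either way. Kif2a, which acts at spindle poles but is not on the division list, was not called (1.09, 0.828 to 1.45). A gene under 2 CPM in CD reaches the minimum only if it is higher in Repop D5. Most members called higher were of this kind, so these counts are partly set by the minimum. With no minimum 23 members were called higher and 5 lower, against 7.26% and 21.2% of 16330 genes. CPM are not divided by gene length, so each gene is compared between libraries and not with other genes.

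**Figure D1:**
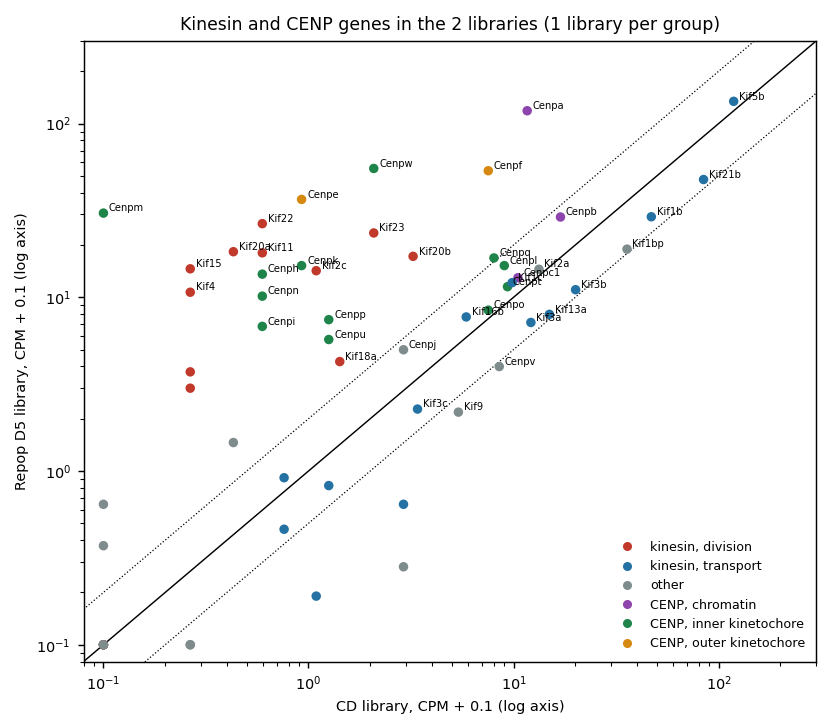
Level of each of the 58 members in the CD library (x axis, CPM + 0.1) and the Repop D5 library (y axis, CPM + 0.1), both on log axes, coloured by known role. The solid line marks equal levels and the dotted lines a ratio of 2 in either direction. The 9 measured division kinesins, in red, lie above the upper dotted line, and the 9 measured transport kinesins, in blue, lie between the dotted lines.

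Mki67, the proliferation antigen used as an anchor (chr7:135689784-135716361), stood at 1.49 CPM in CD (9 UMIs) and 122 CPM in Repop D5 (1343 UMIs). Its ratio was 81.9 (95% interval 43.0 to 179).

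The spindle motors came first among the kinesins. All 9 division kinesins that reached the minimum were called higher, with a median log2 ratio of 3.32. Of these only Kif20b had more than 2 CPM in CD (3.14 CPM), so the others reached the minimum through Repop D5. With no minimum 11 of the 12 on the list were called higher. Kif11, the motor that pushes the spindle poles apart (chr19:37376403-37421859), had 0.495 CPM in CD and reached 17.9 CPM in Repop D5, which is a ratio of 36.2 (12.2 to 177). Kif15, which can back up Kif11 on the spindle, had 1 UMI in CD and 160 in Repop D5, so its ratio of 87.8 has a wide interval (15.5 to 3489). Both genes were thus close to the floor in CD, where 3 UMIs are 0.495 CPM.

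Motors that hold or move chromosomes were called higher as well. Kif22, a chromokinesin that binds chromosome arms (chr7:127027729-127042471), was at 0.495 CPM in CD and at 26.5 CPM in Repop D5, for a ratio of 53.4 (18.1 to 260). Kif4, the other chromokinesin, had 1 and 117 UMIs and a ratio of 64.2 (11.3 to 2557). The annotation also lists pseudogenes of Kif22 and Kif4, so how reads were shared between copies is uncertain. Kif2c, which takes microtubules apart at faulty attachments (chr4:117159639-117182639), had 0.991 CPM in CD and reached 14.1 CPM in Repop D5, which is a ratio of 14.3 (6.41 to 39.5). Kif18a, which damps the swinging of chromosomes at the metaphase plate, had the smallest ratio of the 9, 3.15 (1.47 to 7.74), from 8 and 46 UMIs, and it was not called outside the 3 named clusters (2.25, 0.955 to 6.46).

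Motors of the midzone and of cell cleavage were called higher too. Kif20a, which carries the Aurora B complex to the midzone (chr18:34624613-34633277), was at 0.330 CPM in CD and at 18.2 CPM in Repop D5, for a ratio of 55.1 (15.1 to 458). Kif23, the motor subunit of centralspindlin (chr9:61915905-61946774), had 1.98 CPM in CD and reached 23.4 CPM in Repop D5, which is a ratio of 11.8 (6.64 to 23.1). Only 2 of its 12 CD UMIs lay outside the 3 named clusters, and there its ratio was 38.5 (10.6 to 320). Kif20b, which acts late in cleavage (chr19:34922361-34975745), was at 3.14 CPM in CD and at 17.1 CPM in Repop D5, for a ratio of 5.46 (3.40 to 9.27).

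The other 3 listed division kinesins stayed below the minimum. Kif14, a cleavage motor, had 1 UMI in CD and 40 in Repop D5, and Kif18b, which shortens microtubules that reach the cell edge, had 1 and 32. Kif2b, a relative of Kif2c, had 0 UMIs in both libraries.

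Transport kinesins gave a different picture. Of 15 listed, 9 were measured and 0 were called in either direction, with a median log2 ratio of -0.68. Kif5b, the widely used heavy chain of conventional kinesin (chr18:6201002-6242174), had 118 CPM in CD against 134 CPM in Repop D5, which is a ratio of 1.13 (1.04 to 1.24). Kif21b, which restrains microtubule growth (chr1:136131389-136177998), was at 84.4 CPM in CD and at 47.6 CPM in Repop D5, for a ratio of 0.564 (0.498 to 0.638). Kif1b, a carrier of mitochondria and vesicles (chr4:149176319-149307693), had 46.9 CPM in CD but 29.0 CPM in Repop D5, which is a ratio of 0.618 (0.525 to 0.728). The last 2 intervals lie below 1, yet neither gene reached the ratio that a call needs.

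The kinesin-2 motors Kif3a, Kif3b and Kif3c share the adaptor Kifap3. Kif3b (chr2:153291413-153333390) was at 20.0 CPM in CD and at 11.0 CPM in Repop D5, for a ratio of 0.549 (0.423 to 0.712). The ratio was 0.586 for Kif3a, 0.658 for Kif3c and 0.572 for Kifap3, which is not a member. Kif13a, a motor of recycling endosomes, gave 0.530 (0.390 to 0.720). Kif1c, a vesicle motor, gave 1.24 (0.904 to 1.71), and Kif16b, a motor of early endosomes, gave 1.32 (0.878 to 2.01).

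The scale to which these ratios refer matters for this group. Dividing by a trimmed mean of all genes instead of total UMIs moves every log2 ratio up by 0.46 and brings the median of all genes from -0.41 to 0.02. On that scale the counts over all genes were 1907 higher and 1431 lower, against 1041 and 2808 on total UMIs. Without mitochondrial and ribosomal protein genes in the totals the shift was 0.25, and the counts were 1515 and 2015. Under the trimmed mean Kif5b gave 1.56, Kif21b 0.773, Kif1b 0.848 and Kif3b 0.753. No transport kinesin was called under either scaling, and 26 members were called higher under each, with Cenpb, Cenpj, Cenpl, Kif14 and Kif18b added.

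**Figure D2:**
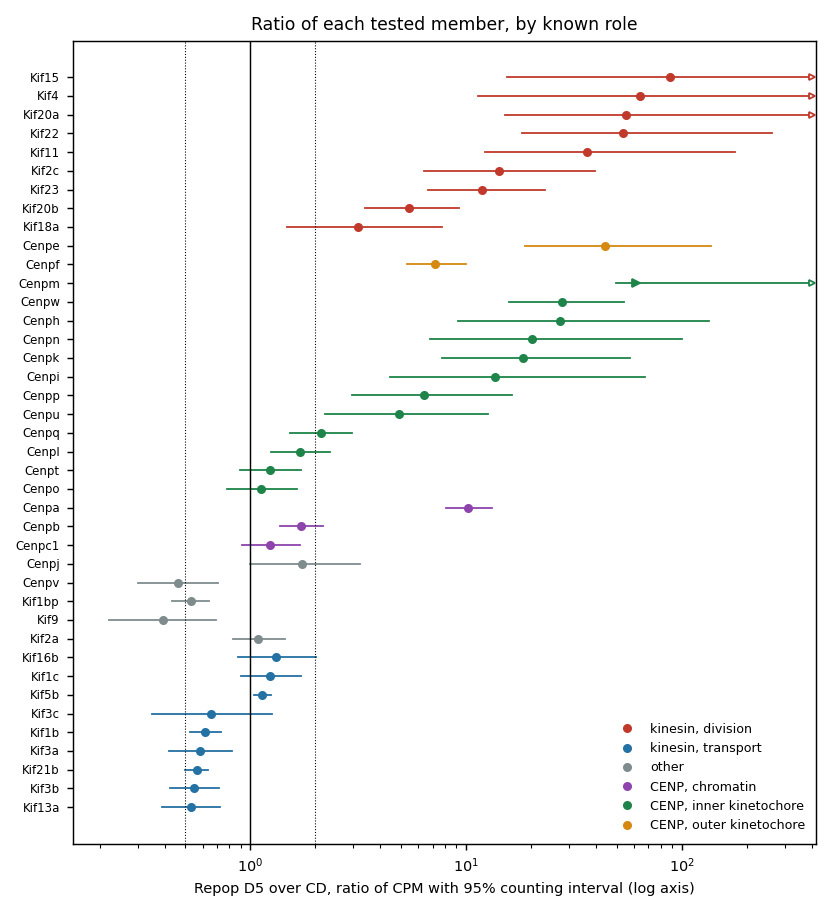
Ratio of Repop D5 over CD for the 40 measured members (x axis, log scale), grouped by known role, with 95% counting intervals. The solid line marks a ratio of 1 and the dotted lines 2 in either direction; open arrowheads mark intervals that run past the axis, and the filled arrowhead is the lower bound for Cenpm. All 9 division kinesins lie right of the upper dotted line, and all 9 transport kinesins lie between the dotted lines.

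Kinesins of other kinds were mostly scarce. Kif2a, which takes microtubules apart at spindle poles and in neurites, was not put on the division list. It gave a ratio of 1.09 (0.828 to 1.45). Kif1bp (chr10:62538626-62578457) had 35.7 CPM in CD but 18.8 CPM in Repop D5, which is a ratio of 0.528 (0.435 to 0.642), and outside the 3 named clusters it passed the call (0.498, 0.395 to 0.629). Kif9, a motor of motile cilia (chr9:110476958-110525179), was called lower, with 5.28 CPM in CD against 2.08 CPM in Repop D5, or 2.54-fold lower (1.44 to 4.54). Under the trimmed mean its ratio was 0.541 and it was not called. Ependymal markers, which would point to ciliated cells, had a sum of 0.165 CPM in CD against 0.181 CPM in Repop D5, and Foxj1 and Ccdc153 were at 0 in both.

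Several members, many of them known from neurons or cilia, had few or no UMIs. Kif26b, Kif12, Kif17 and Kif6 had 0 in both libraries, which allows up to 0.495 CPM in CD against 0.272 CPM in Repop D5. Kif26a and Kif27 had 1 UMI in CD and 0 in Repop D5. The neuronal motors Kif1a (4 and 9 UMIs), Kif5a (4 and 4) and Kif5c (7 and 8) were below the minimum, as were Kif7, a Hedgehog pathway kinesin (0 and 6), Kif24 of the centriole (2 and 15) and Kif16bos (0 and 3). Kif13b had 17 UMIs in CD and 6 in Repop D5, Kif19a of the cilium tip had 17 and 2, and Kif21a had 6 and 1. Neuron markers had a sum of 24.1 CPM in CD against 6.98 CPM in Repop D5, and their part in the values of these scarce genes was not tested.

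At the centromere itself the CENP-A histone stood out from its neighbours. Cenpa (chr5:30666777-30674830) was at 11.6 CPM in CD (70 UMIs) and 119 CPM in Repop D5 (1308 UMIs), a ratio of 10.3 (8.06 to 13.2). Cenpb, whose protein binds a sequence box in centromeric repeats (chr2:131175182-131180067), was at 16.8 CPM in CD and at 28.9 CPM in Repop D5, for a ratio of 1.72 (1.37 to 2.17). Cenpc1, whose protein ties CENP-A nucleosomes to the outer kinetochore, gave 1.24 (0.913 to 1.69). So of the 3 chromatin members only Cenpa was called on total UMIs, while under the trimmed mean Cenpb gave 2.35 and was called as well.

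The inner kinetochore network was called higher in 9 of its 12 members, with a median log2 ratio of 2.16. Its CENP-H, I, K and M branch was higher throughout. Cenpm had 0 UMIs in CD and 336 in Repop D5 (30.4 CPM), or at least 61.4-fold higher when CD is set at 3 UMIs. The ratio was 27.2 for Cenph (9.15 to 134), 18.3 for Cenpk (7.70 to 57.2) and 13.5 for Cenpi (4.45 to 67.1). Each of these 4 genes had at most 5 UMIs in the whole CD library.

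The other branches were split between partners. Cenpw, a histone-fold protein (chr10:30194569-30200560), had 1.98 CPM in CD and reached 55.1 CPM in Repop D5, which is a ratio of 27.8 (15.8 to 54.1). Its dimer partner Cenpt gave 1.23 (0.894 to 1.72). Cenpn, which reads the CENP-A nucleosome, gave 20.3 (6.77 to 99.9), whereas its partner Cenpl (chr1:161070713-161086724) was at 8.92 CPM in CD and at 15.1 CPM in Repop D5, for a ratio of 1.70 (1.24 to 2.35). In the CENP-O group the ratio was 6.35 for Cenpp, 4.86 for Cenpu and 2.11 for Cenpq, against 1.12 for Cenpo (0.777 to 1.64). The 3 partners that were not called, Cenpt, Cenpl and Cenpo, had 45 to 56 UMIs in CD, while the others apart from Cenpq had at most 12. Cenpq, just past the ratio of 2, was not called outside the 3 named clusters (1.79, 1.21 to 2.73).

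Both outer kinetochore members were called higher. Cenpe, a kinesin that pulls stray chromosomes to the plate (chr3:135212537-135273611), had 0.826 CPM in CD and reached 36.5 CPM in Repop D5, which is a ratio of 44.2 (18.8 to 137). Cenpf, a large coiled-coil protein of the kinetochore and nuclear envelope (chr1:189640606-189688086), was at 7.43 CPM in CD and at 53.5 CPM in Repop D5, for a ratio of 7.19 (5.31 to 9.97). Of the members that carry the CENP name but act elsewhere, Cenpj of the centriole gave 1.74 (0.995 to 3.21). Cenpv (chr11:62524946-62539261) was called lower, with 8.42 CPM in CD against 3.90 CPM in Repop D5, or 2.16-fold lower (1.41 to 3.32). It was not called under the trimmed mean (0.635) or without mitochondrial and ribosomal protein genes in the totals (0.551).

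Outside the 3 named clusters, 20 of 41 measured members were called higher and 3 lower, where 10.6% of all genes were higher and 24.7% lower. The division kinesins called higher numbered 9 of 10 measured there, and the transport kinesins 0 of 9. Cenpa gave 12.2 (8.60 to 17.9) in those cells, Cenpf 6.65 (4.52 to 10.2) and Kif5b 1.24.

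Genes that work with the members were taken from lists of their partners. Of 29 kinetochore partners measured, 22 were called higher and 0 lower. Stra13, listed as Cenpx in a newer annotation, stood at 79.8 CPM in CD against 206 CPM in Repop D5, and Bub3 of the spindle checkpoint at 107 and 136 CPM. Apitd1, the newer Cenps, gave a ratio of 8.85 (5.34 to 15.7). Of 20 spindle and midzone genes 18 were called higher, among them Birc5 (3.30 CPM in CD against 173 CPM in Repop D5), and Numa1 (84.9 and 45.0 CPM) was not called.

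None of 20 measured dynein and dynactin genes, the motor that walks the other way, was called: the light chain Dynll1 stood at 340 CPM in CD against 420 CPM in Repop D5, and Dync1i2 at 233 and 136 CPM. Of 11 kinesin partners 3 were called higher, and all 3 were kinesins of the Kifc family, Kifc1 (13.4, 6.65 to 31.4), Kifc3 (2.66) and Kifc5b (6.04). Klc2, a light chain of conventional kinesin, was called lower at a ratio of 0.282 (0.200 to 0.394), while Klc1 stood at 32.2 CPM in CD against 27.4 CPM in Repop D5 and the cargo adaptor Kidins220 at 30.7 and 27.7 CPM. Kifc1 is also on the spindle list, and those 4 genes were singled out after their values were seen. Among 11 tubulins, the track itself, 5 were higher and 1 lower, with Tuba1b at 424 CPM in CD against 1414 CPM in Repop D5 and Tubb5 at 305 and 1114 CPM.

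To separate cycle-linked from other members by the cells themselves, each Repop D5 cell was thinned to 7000 UMIs, and cells with a Mki67 UMI were set against cells without one. Of 505 cells deep enough, 220 held a Mki67 UMI and 285 did not, and 48 shallower cells were left out. Cells with Mki67 had been deeper before thinning, with a median of 21341 UMIs against 15931. A member was called linked when the share of cells with its UMI was at least 2 times as high among Mki67 cells and the 2 exact (Clopper-Pearson) 95% intervals did not overlap. It was called not linked when it was found in at least 20 cells at a ratio under 2. This split uses the measured values and is given as a description.

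By that rule 9 members were linked, 19 not linked and 30 not placed, most of the last for lack of cells. Over all 8436 genes found in at least 20 thinned cells 0.628% were linked. The linked kinesins were 6 of the 12 division kinesins, with the other 6 not placed. Of the 15 transport kinesins 0 were linked, 8 were not linked and 7 were not placed. A UMI of Kif20b was found in 16.8% of cells with Mki67 (12.1 to 22.4) and 4.21% of cells without (2.19 to 7.24). For Kif20a the shares were 16.4% and 4.91%, for Kif22 21.8% and 7.72%, for Kif11 14.5% and 5.26%, for Kif2c 12.3% and 4.91%, and for Kif23 17.3% and 7.37%. Among the CENP genes the linked ones were Cenpf (33.2% and 10.5%), Cenpe (25.5% and 8.42%) and Cenpl (13.6% and 5.61%).

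Transport kinesins were found about as often in either set of cells. Kif5b was found in 61.8% of cells with Mki67 (55.0 to 68.3) and 54.0% of cells without (48.1 to 59.9). Kif21b gave 26.4% and 25.3%, Kif1b 18.6% and 18.2%, and Kif3b 7.73% and 7.72%. For each of these 4 genes the 2 intervals overlapped.

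Some genes of the dividing cell were not linked either. Cenpa was found in 54.1% of cells with Mki67 (47.3 to 60.8) and 34.4% of cells without (28.9 to 40.2), so its intervals did not overlap but its ratio of 1.57 was below 2. Cenpw gave 32.7% and 23.2%, Cenpm 24.5% and 15.4%, and Cenpk 11.8% and 7.02%. Just outside the rule lay Kif15 (10.0% and 4.91%, overlapping intervals), and just inside it Kif23 at a ratio of 2.34. A share of cells has a ceiling, and its part in the ratio of a widely found gene such as Cenpa was not tested.

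The number of linked members depended on depth. With cells thinned to 3000 UMIs 3 members were linked (Cenpe, Cenpf and Kif20b), and with no thinning 30, when 18.5% of all genes were. With Top2a in place of Mki67 there were 10, of which 8 are among the 9 above. No transport kinesin was linked in any of these except Kif16b without thinning.

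**Figure D3:**
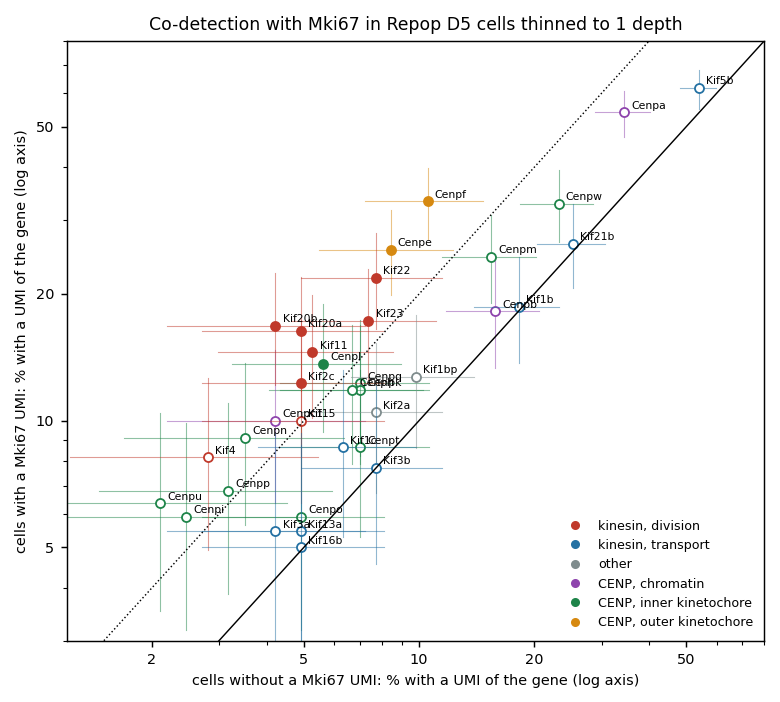
Share of Repop D5 cells with a UMI of each member among cells without a Mki67 UMI (x axis, %) and with one (y axis, %), both on log axes, for members found in at least 20 of 505 cells thinned to 7000 UMIs. Filled points are the 9 linked members, thin lines are 95% intervals, the solid line marks equal shares and the dotted line a ratio of 2. Kif5b, Kif21b, Kif1b and Kif3b lie along the solid line and Kif20b and Kif20a above the dotted one.

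The linked set and the promoter letters were compared as counts. CHR letters stood in all 8 linked members with a RefSeq promoter and in 3 of 16 not linked members, against 30.6% of all genes in the table. Both CHR and CCAAT letters stood in 6 of the 8 and in 2 of the 16, against 12.2% of all genes. E2F letters stood in 1 of the 8 and in 6 of the 16, against 7.79% of all genes. Kif20a, linked, is not among the matched genes.

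Where in the cell cycle the members' RNA was found was read from other genes. Repop D5 cells were ranked by the share of their UMIs from 46 genes of G2 and M phase and, separately, from 42 genes of S phase, with no member and no Mki67 in either list, and cut into 5 equal parts. In the order from the lowest to the highest G2 and M part, Cenpa stood at 35.0, 46.1, 78.0, 113 and 247 CPM. Cenpf stood at 7.40, 12.6, 12.6, 41.7 and 148 CPM, and Kif20b at 2.69, 3.84, 5.20, 11.6 and 48.0 CPM. Cenpf and Kif20b were low in the first 3 parts and highest by far in the last, while Cenpa rose from each part to the next. The median depth also went up along this order, from 11735 UMIs in the lowest part to 21985 in the highest, and its part in the values was not tested.

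Along the S ranking the inner kinetochore genes took different courses. Cenpk stood at 4.94, 4.35, 9.17, 15.6 and 32.4 CPM from the lowest to the highest S part, and Cenph at 4.94, 4.90, 10.5, 16.0 and 23.7 CPM. Cenpo stood at 9.88 CPM in the lowest part, 6.11 in the fourth and 12.4 in the highest, and the division kinesin Kif11 at 6.35, 7.07, 12.8, 25.8 and 27.1 CPM. Cenpa, in contrast, went from 89.6 CPM in the lowest S part to 156 in the fourth and 71.5 in the highest. Kif5b stood between 89.6 and 155 CPM along the S ranking and between 92.8 and 158 CPM along the G2 and M ranking, lowest in the lowest part of each. Kif1b went from 33.6 CPM in the lowest G2 and M part to 24.4 CPM in the highest.

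**Figure D4:**
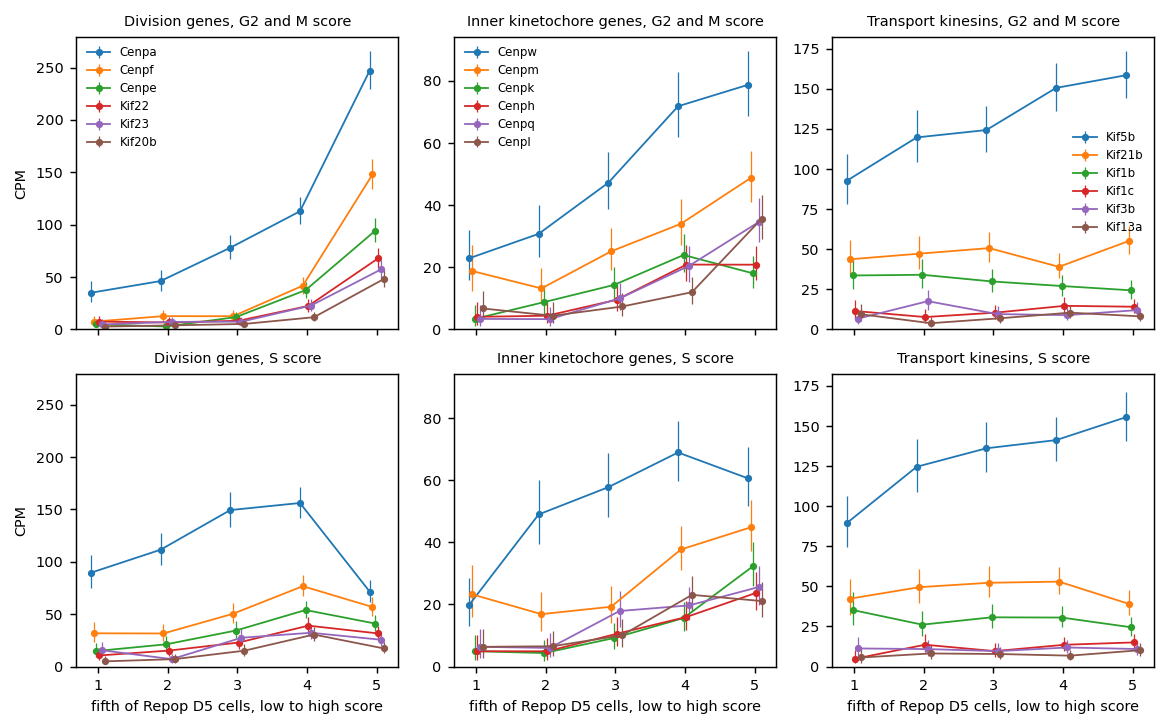
Level (CPM, y axis, from 0) of 18 members in Repop D5 cells cut into 5 equal parts (x axis) by the share of their UMIs from G2 and M phase genes (top) or S phase genes (bottom). Points are sums over about 110 cells, bars are exact Poisson 95% intervals, and each column has its own scale. Cenpa, Cenpf and Cenpe turn up steeply in the last G2 and M part and down in the last S part. Kif5b is lowest in the first part of both rankings, and the other transport kinesins follow no common course.

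The highest G2 and M part was then set directly against the highest S part, leaving out 23 cells that were in both, so that 87 cells of similar depth (medians of 21947 and 20695 UMIs) stood on each side. Of 41 members measured 15 were higher in the G2 and M cells and 1 in the S cells, where 2.58% of all genes were higher in the first and 2.46% in the second. Cenpa had 274 CPM in the G2 and M cells and 41.3 CPM in the S cells, a ratio of 6.63 (5.25 to 8.46). Among the division kinesins 9 of 11 were higher in the G2 and M cells, with ratios from 2.41 for Kif2c to 6.08 for Kif20b. Kif15 (1.90) and Kif18b (2.14) were not called. Cenpf gave 5.84 (4.32 to 8.04) and Cenpe 4.14 (2.99 to 5.86).

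Of 12 inner kinetochore genes measured, 1 was called higher in G2 and M, 1 in S and 10 in neither. Cenpk had 15.7 CPM in the G2 and M cells and 34.7 CPM in the S cells, a ratio of 0.452 (0.291 to 0.692), and it was the 1 member called higher in S. It was not called when cells were cut into 3 or into 10 parts. Cenph gave 0.840 (0.542 to 1.30), Cenpm 1.15 (0.840 to 1.57), Cenpw 1.40 (1.11 to 1.79) and Cenpq 1.61 (1.07 to 2.43). The ratio was 1.51 for Cenpn and Cenpt, 1.46 for Cenpp, 1.11 for Cenpu, 0.998 for Cenpi and 0.706 for Cenpo. Of this group Cenpl alone was called higher in G2 and M (2.34, 1.51 to 3.73). With cells cut into 3 parts, Cenpn, Cenpp and Cenpq were called higher in G2 and M as well. Cenpc1 of the centromeric chromatin gave 2.89 (1.73 to 5.05), although it was not called between the libraries. Among transport kinesins Kif3a was called (2.89, 1.19 to 8.0) from 22 and 7 UMIs, and Kif5b gave 1.03 (0.877 to 1.2).

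**Figure D5:**
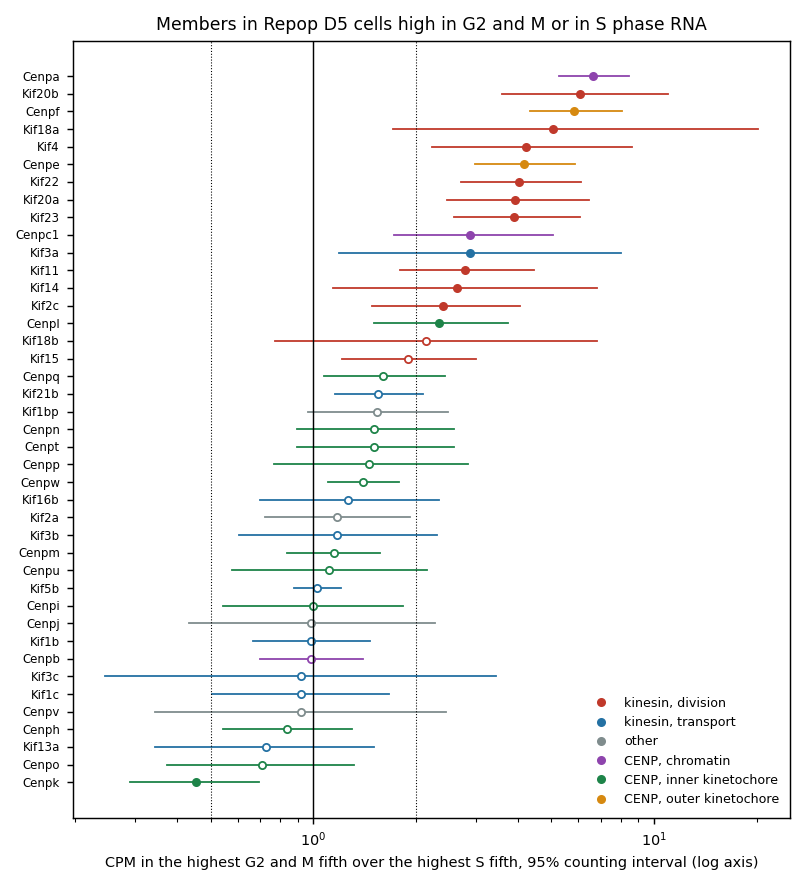
Ratio of CPM in Repop D5 cells of the highest G2 and M part over the highest S part (x axis, log scale) for the 41 measured members, with 95% counting intervals. Filled points are called, the solid line marks 1 and the dotted lines 2 in either direction. Cenpa and Kif20b lie highest, and Cenpk is the 1 filled point on the S side.

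Members were also compared in Repop D5 cells with the least cycle RNA, a comparison added after the values above were known. The 125 cells in the lower 2 parts of both rankings, outside the 3 named clusters, had a median of 12023 UMIs and were set against the 430 remaining CD cells. They were low in cycle RNA only beside other Repop D5 cells, since Mki67 stood at 42.2 CPM in them (74 UMIs) against 0.947 CPM in the CD cells (3 UMIs), a ratio of 44.6 (14.7 to 221). Of 34 members measured 7 were higher and 5 lower, where 7.14% of all genes were higher and 24.0% lower. Cenpw was higher (15.9, 6.33 to 51.4), as were Cenpa (4.52, 2.97 to 7.04) and Cenpm, which had 0 UMIs in CD and 24 in these cells. Also higher were Kif22 (14.5, 3.40 to 130), Kif23 (8.14, 1.68 to 77.4), Kif11 (7.23, 1.44 to 69.9) and Cenpk (7.23, 1.44 to 69.9). Each of these 4 genes had 2 UMIs in the CD cells. Cenpf gave 1.21 (0.625 to 2.27), Kif20b 0.986 (0.299 to 2.91) and Cenpl 0.603 (0.249 to 1.32), and all 3 intervals included 1. The 5 members called lower were Cenpc1, Cenpq, Cenpv, Kif1bp and Kif9.

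In the CD library the linked members had 149 UMIs in all, of which Cenpl held 54, Cenpf 45 and Kif20b 19. Their summed level was 19.5 CPM in the border macrophage-like cells, 24.8 in the monocyte-like, 35.5 in the neutrophil-like and 26.2 in the remaining cells. The neutrophil-like cells held 12.8% of these UMIs (7.86 to 19.2, exact binomial) against 8.83% of all UMIs. They also held 5 of the 9 Mki67 UMIs in CD. In Repop D5 the summed level was 234 CPM in the remaining cells, 55.9 CPM in the monocyte-like cells and 18.7 CPM in the neutrophil-like cells, the last from 1 UMI. Since the linked set was picked by its values in Repop D5, these levels are a description and not a test between libraries.

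Cenpa was not low in every CD cell. It stood at 49.6 CPM in the CD monocyte-like cells (10 UMIs) and at 48.4 CPM in those of Repop D5 (32 UMIs), but at 10.1 CPM in the remaining CD cells against 123 CPM in the remaining Repop D5 cells. Kif5b ranged from 94.3 to 132 CPM over the 4 sets of CD cells.

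Single cells that held several linked UMIs were counted after thinning every cell to 3000 UMIs in 1 draw. The linked genes were picked by their values in Repop D5, so the shares below describe the cells and do not test the difference. At least 2 linked UMIs were found in 3 of 599 CD cells (0.501%, 0.103 to 1.46) and in 70 of 553 Repop D5 cells (12.7%, 10.0 to 15.7), exact binomial intervals again. All 3 CD cells were among the remaining cells, and the highest of them held 6. In Repop D5 69 of the 70 were among the remaining cells and 1 was monocyte-like. None of 41 CD neutrophil-like cells had as many, which allows a share of up to 8.60% by the same exact interval.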

How the data were processed

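The values deposited by the authors are raw counts of UMIs, whole numbers for each gene in each barcode, from Cell Ranger 2.1.0 and the mm10 genome per the submitters' processing notes. The annotation release and the strand setting of the counting are not given in the sources used here. The members and gene lists were chosen with earlier results of these data known. A minimum of 500 genes and a limit of 10% mitochondrial UMIs were set for cells, with doublets left in. UMIs were summed per library and scaled to 1000000. Ratios carry a 95% interval from the exact binomial given the sum of both counts, computed over all genes. Clusters came from scanpy 1.11.5 (2000 variable genes, 30 components, 15 neighbours, Leiden resolution 1 with leidenalg 0.10.2), named from marker lists. For the split, the Repop D5 cells deep enough (505 at 7000 UMIs) were thinned in 20 seeded draws with numpy 2.4.6. The cell counts of the split are medians over the draws. Intervals came from scipy 1.17.1, and the code was checked on simulated data. Coordinates of genes are from GENCODE M21 on the mm10 assembly.

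Full values are given for the linked kinesins and CENP genes (up to 8 of each were allowed), the 8 not linked members with the highest mean CPM and all members called lower, with Mki67 and the 2 most abundant genes of each partner list. Genes of the S phase list (35 of 42 called higher) and of the G2 and M phase list (40 of 46) served for ranking cells. Every other member is named at least once. Alternatives changed the cell filter, scaling, cell weighting, depth, doublets, clusters, minimum, ratio, anchor gene and number of parts. Motor motifs of the proteins were planned and not run, since protein sequences were not used here.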

Additional observations from a re-analysis of the deposited data

How the results depend on the processing

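No paired analysis was possible because each group is 1 library. For the same reason no replicate could be left out. Members called higher numbered 19 to 26 under every alternative except a minimum of 10 CPM, which left 21 members measured and 9 called, 3 of them division kinesins. The count of 2 members called lower moved more: it was 0 with trimmed-mean scaling or a minimum of 10 CPM, 1 without mitochondrial and ribosomal protein genes, with equal weight per cell or with cells thinned to 3000 UMIs, 5 with no minimum and 8 at a ratio of 1.5. Transport kinesins called lower were 1 with the stricter cell filter (1000 genes, 5% mitochondrial), 2 with no minimum and 5 at a ratio of 1.5. The split gave 3 linked and 11 not linked members at 3000 UMIs, 30 and 12 without thinning, and 4 and 30 at a share ratio of 3. The member called higher in S was lost with 3 or 10 parts (0 each), while those higher in G2 and M were 19 and 14. Under the 10 alternatives that can move a ratio, 188 ratios of the 19 members given in full were recomputed, of which 170 kept within their interval, 18 moved outside it and 0 changed direction. Under the trimmed mean neither Cenpv nor Kif9 was called lower. The cause of these changes was not tested, beyond the fewer genes that a higher minimum leaves. Depth limits the ratios of division kinesins and inner kinetochore genes with 3 UMIs or fewer in CD, whose upper bounds are wide.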
